A study of Mus musculus with 12 samples.

Results

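The genes described here are 10 markers of endothelial cells, Pecam1, Kdr, Flt1, Flt4, Tek, Tie1, Emcn, Eng, Erg and Vwf, chosen by name from the 57010 genes of the table. All 10 were found in it, each on 1 row. They were followed in NE-4C cells, a mouse line made from the brain of an embryo that lacks p53 and used as a model of neural progenitor cells. WT cells and a Faf2 knockout (KO) line, in which CRISPR/Cas9 removed an exon of Faf2, were sequenced as bulk mRNA. The NO groups were left uninduced and are listed at day 0. The RA groups received 1 µM all-trans retinoic acid (RA) for 24 h and were collected on day 3 of induction. RA and the time in culture therefore cannot be told apart, and a change with RA below covers both. WT NO, WT RA, KO NO and KO RA had 3 libraries each from independent passages, and the KO libraries all come from the 1 edited line, so that its editing and its history as a line cannot be told apart.

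Endothelial cells line the blood and lymph vessels and come from the mesoderm, not from the neural ectoderm. Their growth and survival run through receptor tyrosine kinases, of which KDR (VEGFR2), FLT1 (VEGFR1) and FLT4 (VEGFR3) bind vascular endothelial growth factors and TEK (TIE2), with its partner TIE1, binds angiopoietins. ERG is an ETS family transcription factor that holds the endothelial programme, PECAM1, endomucin (EMCN) and endoglin (ENG) sit on the cell surface, and von Willebrand factor (VWF) is stored and released by mature endothelium.

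With RA, Kdr, Tek and Emcn rose in KO cells. Erg, Tie1 and Eng also had higher TMM-scaled levels in every KO RA library than in any KO NO library. In KO RA replicate 3 Erg and Tie1 were under the floor of 3 counts used here, with about 9 and 13 fragments. Erg had no count in the 9 libraries of the other groups. In WT RA against WT NO edgeR called no member, and Flt4, the 1 member that lay lower in every WT RA library, was called lower by DESeq2 and limma-voom. Levels were low throughout: with 3 counts in a library as the floor of detection, 9 of 10 members were above it in at least 1 KO RA library, 8 in WT RA and 6 in either NO group, and 6, 6, 6 and 4 in all 3 libraries of KO RA, WT RA, KO NO and WT NO. Counting members with over 3 approximate fragments in a library gave 10 of 10 in KO RA, 9 in WT RA and 6 in either NO group. The whole list summed to between 15.5 and 25.4 CPM (counts scaled to library size) in KO RA. In KO NO the sum was between 7.84 and 12.9 CPM, in WT RA between 6.15 and 9.21 CPM and in WT NO between 7.87 and 9.11 CPM.

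The promoters of Kdr, Tek and Emcn, the 3 members called higher in KO RA than in KO NO, are shown for the letters GGAA, the core that ETS factors such as ERG bind, on either strand. Each run is the 250 bases before the start of the gene's canonical GENCODE transcript in GRCm39, written in the direction of transcription, with GGAA or TTCC in capitals. Kdr is on the minus strand at chr5:76139119-76139368, Tek on the plus strand at chr4:94627041-94627290 and Emcn on the plus strand at chr3:137046544-137046793.
Kdr: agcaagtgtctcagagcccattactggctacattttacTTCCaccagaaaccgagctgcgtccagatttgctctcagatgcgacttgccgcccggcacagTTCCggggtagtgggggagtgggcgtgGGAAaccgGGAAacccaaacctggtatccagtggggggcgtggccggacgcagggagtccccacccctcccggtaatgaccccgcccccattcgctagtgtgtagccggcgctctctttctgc
Tek: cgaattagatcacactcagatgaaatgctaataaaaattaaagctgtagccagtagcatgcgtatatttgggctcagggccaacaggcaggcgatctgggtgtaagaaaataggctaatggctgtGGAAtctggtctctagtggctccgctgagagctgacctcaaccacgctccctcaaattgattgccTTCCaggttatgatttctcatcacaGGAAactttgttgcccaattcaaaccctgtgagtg
Emcn: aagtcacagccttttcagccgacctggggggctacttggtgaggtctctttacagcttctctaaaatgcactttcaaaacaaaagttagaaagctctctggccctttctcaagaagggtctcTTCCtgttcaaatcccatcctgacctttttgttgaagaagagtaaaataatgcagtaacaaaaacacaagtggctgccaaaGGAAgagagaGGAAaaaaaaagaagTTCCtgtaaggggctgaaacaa
Kdr held 4 matches, Tek 3 and Emcn 4. All 10 members held at least 2 and the largest number was 6, in Flt4, but 93.9% of 21651 promoters of protein-coding genes held at least 1, and 55.8% held at least 3. The letters AGGTCA, the repeat unit that retinoic acid receptors bind, were found on either strand in 3 of 10 members (Tek, Emcn and Erg) and in 13.1% of all promoters, and AGATAA, a site of GATA factors, in 1 of 10 (Erg) and 9.63%. The windows of Pecam1, Kdr, Eng, Erg and Vwf lie inside the annotated span of the gene, since another transcript starts farther upstream. A match is a description of the letters and not of binding.

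The libraries held between 17370049 and 30738694 counts, and 3 counts corresponded to between 0.0837 and 0.297 CPM after scaling by the trimmed mean of M values (TMM). KO RA replicate 3 stood apart. Its TMM factor was 0.394 against 0.872 to 1.28 in the other 11 libraries, 62.5% of its counts fell on its top 100 genes (37.1% to 50.4% elsewhere) and 23.5% on mitochondrial genes (9.10% to 17.7% elsewhere). Because of its TMM factor, its CPM are scaled up by more than in any other library. Values without this library are given beside several members' results and most of the lists' counts. Faf2 stood at 21.0, 21.7 and 25.4 CPM in KO NO, against 49.96, 38.8 and 35.9 CPM in WT NO, a log2 difference of −0.87 (standard error, SE, 0.27; edgeR adjusted p = 0.179), and 36.1, 34.3 and 18.8 CPM in KO RA against 35.1, 37.8 and 49.0 CPM in WT RA (−0.45, SE 0.27, edgeR adjusted p = 0.395). Reads were counted over the whole gene, so these levels do not check the deleted exon.

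**Figure D1:**
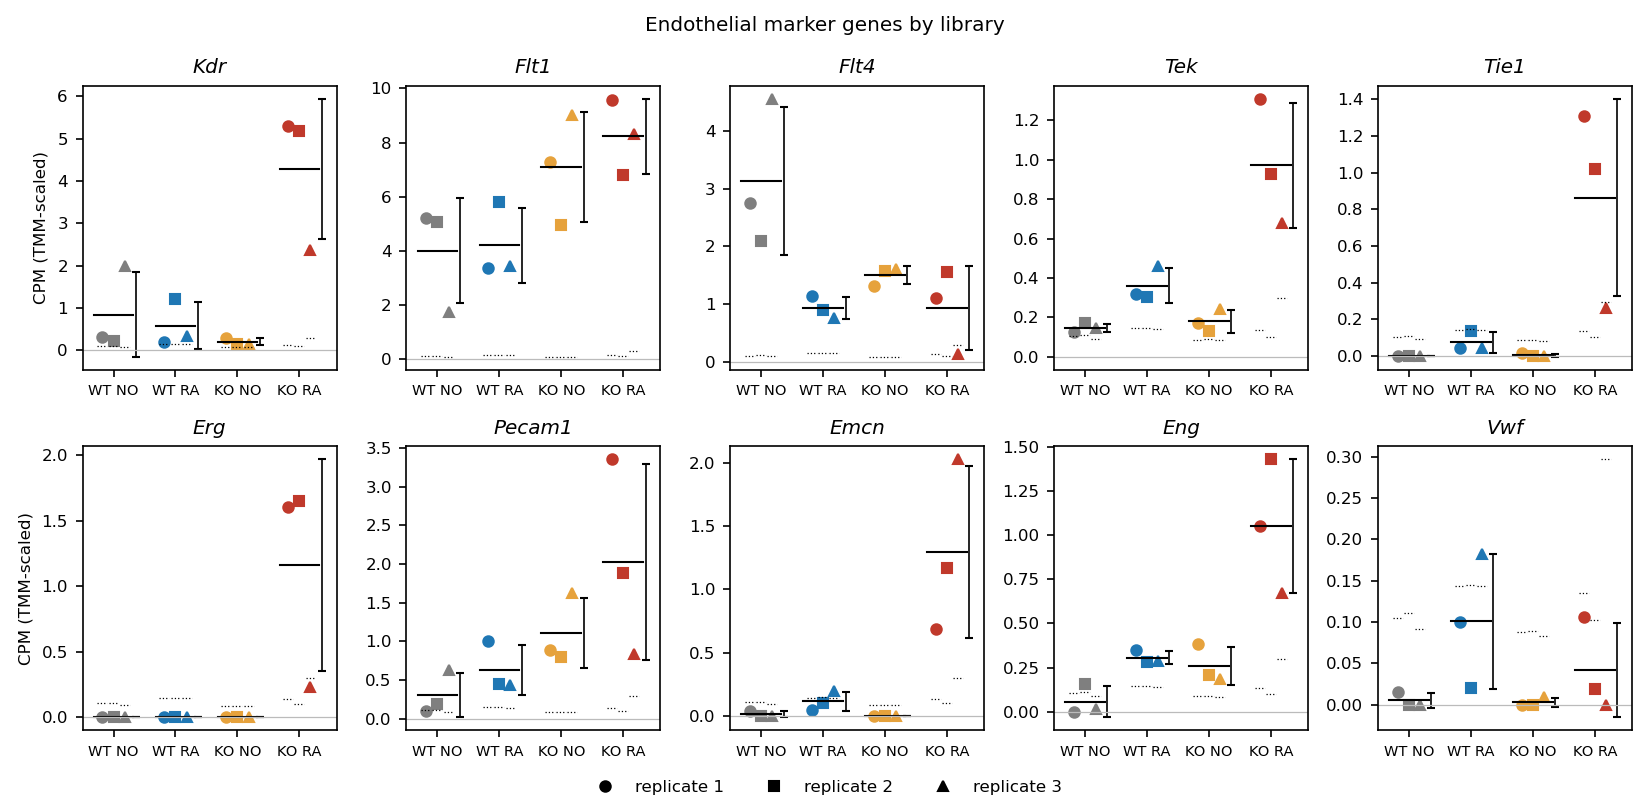
Level of each of the 10 genes (CPM, TMM-scaled, linear axes that differ between panels) in every library, by group. Symbols are replicates, horizontal lines are group means, bars beside them are the SD of 3 libraries and dotted ticks are the CPM of 3 counts in each library. Erg is at 0 in the 9 libraries outside KO RA, and the KO RA points of Kdr lie between 2.38 and 5.31 CPM.

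Kdr (chromosome 5, 76093487 to 76139884, minus strand), the main signalling receptor for VEGF-A, is among the first genes of the endothelial lineage. Its level was 5.31, 5.18 and 2.38 CPM in KO RA replicates 1 to 3 and 0.300, 0.159 and 0.147 CPM in KO NO. WT NO had 0.322, 0.220 and 2.00 CPM, and WT RA 0.201, 1.22 and 0.342 CPM. After TMM scaling the KO RA libraries were above all others, and 1 WT library on each side, WT NO replicate 3 and WT RA replicate 2, stood above the remaining WT libraries. Without TMM factors KO RA replicate 3 had 0.937 CPM, below WT NO replicate 3 (2.41 CPM) and WT RA replicate 2 (1.24 CPM) and above all KO NO libraries. In KO cells Kdr rose with RA by 4.45 on the log2 scale (SE 0.97, edgeR adjusted p = 0.0253). It was 4.72 without KO RA replicate 3 (SE 0.99, edgeR adjusted p = 0.0105). KO RA exceeded WT RA by 2.89 on the log2 scale (SE 0.90, edgeR adjusted p = 0.148). In WT RA against WT NO it was −0.56 (SE 0.87, edgeR adjusted p = 0.874), and 1.09 without WT NO replicate 3 (edgeR adjusted p = 0.616).

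Flt1 (chromosome 5, 147498414 to 147662826, minus strand) encodes a receptor that binds VEGF-A tightly and, in its soluble form, holds it back from KDR. It was the most abundant member in 11 of the 12 libraries on a scale corrected for gene length. WT NO had 5.19, 5.05 and 1.75 CPM, WT RA 3.36, 5.81 and 3.44 CPM, KO NO 7.27, 4.97 and 9.03 CPM and KO RA 9.56, 6.80 and 8.33 CPM. Within each genotype the RA and NO libraries overlapped, with log2 fold changes of 0.07 in WT (interval of 2 SE on each side −0.76 to 0.89) and 0.21 in KO cells (−0.60 to 1.03). The KO RA libraries lay above the WT RA libraries, with a log2 difference of 0.97 (SE 0.41, edgeR adjusted p = 0.264). On CPM without TMM factors these groups overlapped, since KO RA replicate 3 then had 3.28 CPM.

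Flt4 (chromosome 11, 49500090 to 49543582, plus strand), the receptor of VEGF-C and VEGF-D in lymphatic endothelium, ran the other way. WT NO had 2.76, 2.09 and 4.56 CPM and WT RA 1.14, 0.892 and 0.756 CPM. KO NO had 1.32, 1.58 and 1.61 CPM and KO RA 1.11, 1.56 and 0.131 CPM. All WT RA and all KO NO libraries were below all WT NO libraries, while KO RA overlapped with both WT RA and KO NO. The log2 fold change of WT RA against WT NO was −1.75 (SE 0.64, edgeR adjusted p = 0.280), and −1.75 (SE 0.37, edgeR adjusted p = 0.0167) without KO RA replicate 3, which is in neither group but enters the estimate of the spread (5.13% of all genes were then called lower). In KO RA replicate 3 the 0.131 CPM came from about 10 fragments and lay under the floor of that library.

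Tek (chromosome 4, 94627291 to 94763224, plus strand) had 1.31, 0.930 and 0.677 CPM in KO RA and 0.170, 0.129 and 0.242 CPM in KO NO. WT RA had 0.318, 0.304 and 0.463 CPM and WT NO 0.128, 0.170 and 0.146 CPM. Both RA groups lay above the NO group of the same genotype without overlap, and the NO groups overlapped with each other. The log2 fold change with RA was 2.40 in KO cells (SE 0.57, edgeR adjusted p = 0.0360) and 1.19 in WT cells (SE 0.58, edgeR adjusted p = 0.439). The difference between these changes was 1.21 (interval of 2 SE on each side −0.40 to 2.83, edgeR adjusted p = 0.680). Without TMM factors, KO RA replicate 3 had 0.266 CPM and fell among the KO NO libraries, which then reached 0.291 CPM. The call was lost in 12 of 19 alternatives.

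Tie1 (chromosome 4, 118328385 to 118347261, minus strand) failed the filter on low counts that 16502 genes passed. It had 1.31, 1.02 and 0.264 CPM in KO RA, from about 78, 83 and 13 fragments, with replicate 3 under its floor of 0.297 CPM. KO NO had 1 fragment in 1 library and WT NO none. WT RA had 0.0423, 0.139 and 0.0431 CPM, all under the floor. Summed over libraries, KO RA had 174 fragments against 1 in KO NO, a ratio of 293 with an exact interval of 51.9 to 11638 that covers counting error only. Without KO RA replicate 3 it passed the filter, and its log2 fold change with RA in KO cells was 6.36 (SE 1.27, edgeR adjusted p = 0.0122). Over KO NO it was called in 7 of the 12 alternatives that tested it.

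Erg (chromosome 16, 95160028 to 95387452, minus strand) had 1.60, 1.65 and 0.227 CPM in KO RA, from about 73, 103 and 9 fragments. No fragment of it was counted in any WT NO, WT RA or KO NO library. There 3 counts correspond to between 0.0837 and 0.145 CPM. Since 1 fragment of Erg made 0.268 to 0.486 counts, a count of 0 allows less than this. KO RA replicate 3 lay under its own floor of 0.297 CPM, and the other KO RA libraries far above theirs. With 3 counts per library taken for the groups at 0, the KO RA mean was at least 13.4-fold higher than KO NO and at least 8.06-fold higher than WT RA. Erg failed the same filter as Tie1. Without KO RA replicate 3 it was called in KO RA against KO NO (edgeR adjusted p = 0.0208) and against WT RA (edgeR adjusted p = 0.0366), where it was the only member called (4.42% of all genes were called higher). Over all alternatives that tested it, Erg was called in 2 of 11 over KO NO (adjusted p up to 0.162) and 1 of 11 over WT RA (up to 0.312).

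Emcn (chromosome 3, 137046794 to 137138999, plus strand), a sialomucin of capillary and venous endothelium, had 0.683, 1.17 and 2.03 CPM in KO RA and 0 in all KO NO libraries. WT RA had 0.0459, 0.103 and 0.194 CPM, and WT NO 0.0412, 0 and 0 CPM. KO RA was above every other library, with replicate 3 the highest, unlike in Kdr, Tek, Tie1 and Erg. On CPM without TMM factors replicate 3 was the lowest of the KO RA libraries, at 0.798 CPM, and still above every library of the other groups. Against 3 counts per library, KO RA was at least 14.9-fold higher than KO NO (edgeR adjusted p = 0.0101). Against WT RA the log2 difference was 3.43 (SE 0.95, edgeR adjusted p = 0.123). Emcn had 14 fragments in WT RA and 2 in WT NO, a ratio of 9.90 with an exact interval of 2.27 to 89.8 for counting error.

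Eng (chromosome 2, 32535543 to 32574661, plus strand), a co-receptor for TGF-β and BMP ligands also found outside endothelium, had 1.05, 1.43 and 0.673 CPM in KO RA and 0.383, 0.208 and 0.188 CPM in KO NO. WT RA had 0.350, 0.281 and 0.290 CPM and WT NO 0, 0.158 and 0.0147 CPM. In both genotypes the RA libraries lay above the NO libraries, and KO NO lay above WT NO. EdgeR called none of these differences, while DESeq2 and limma-voom called Eng higher in KO RA than in KO NO. Without TMM factors KO RA replicate 3 had 0.265 CPM, and KO RA then overlapped with both KO NO and WT RA. The log2 fold change with RA was 2.01 in KO cells (SE 0.91, edgeR adjusted p = 0.195) and 2.57 in WT cells (SE 1.04, edgeR adjusted p = 0.336). In KO NO against WT NO it was 2.35 (SE 1.03, edgeR adjusted p = 0.384).

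Pecam1 (chromosome 11, 106543689 to 106641454, minus strand), an adhesion molecule of endothelial junctions that platelets and leukocytes also carry, had 0.887, 0.801 and 1.62 CPM in KO NO against 0.101, 0.183 and 0.635 CPM in WT NO. KO RA had 3.36, 1.88 and 0.835 CPM and WT RA 1.00, 0.445 and 0.437 CPM. KO NO lay above WT NO, with a log2 difference of 1.79 (SE 0.74, edgeR adjusted p = 0.349), and KO RA overlapped with both KO NO and WT RA through replicate 3 alone. The log2 fold change with RA in KO cells was 0.88 (SE 0.71, edgeR adjusted p = 0.457), and 1.23 without that library (SE 0.69, edgeR adjusted p = 0.259).

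Vwf (chromosome 6, 125523737 to 125663642, plus strand) was under the floor of 3 counts in 11 of 12 libraries, although 1 fragment of this long transcript makes less than 1 count. It had 0.0996, 0.0201 and 0.183 CPM in WT RA, from about 16, 3 and 28 fragments, of which the last alone was above its floor. KO RA had 0.107, 0.0192 and 0 CPM, from about 14, 3 and 0 fragments. Summed over libraries there were 47 fragments in WT RA against 3 in WT NO, a ratio of 22.2 (exact interval 7.13 to 111, counting error only), and 17 in KO RA against 2 in KO NO (14.3, interval 3.40 to 128). The WT RA libraries were above all WT NO libraries, and KO RA overlapped with KO NO.

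By group mean, 8 of 10 members were highest in KO RA, Flt4 in WT NO (3.13 ± 1.28 CPM, SD, n = 3) and Vwf in WT RA (0.101 ± 0.0813 CPM). Without TMM factors it was 7 of 10, as Flt1 was then higher in KO NO. Within KO RA the order of the means was Flt1 (8.23 ± 1.38 CPM), Kdr (4.29 ± 1.65), Pecam1 (2.02 ± 1.27), Emcn (1.29 ± 0.681), Erg (1.16 ± 0.809), Eng (1.05 ± 0.377), Tek (0.972 ± 0.318), Flt4 (0.933 ± 0.731), Tie1 (0.864 ± 0.538) and Vwf (0.0419 ± 0.0568). From Emcn to Tie1, each member differed from the next in this order by less than the SD of either. In bulk RNA, fewer cells of a type and less RNA per cell cannot be told apart.

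**Figure D2:**
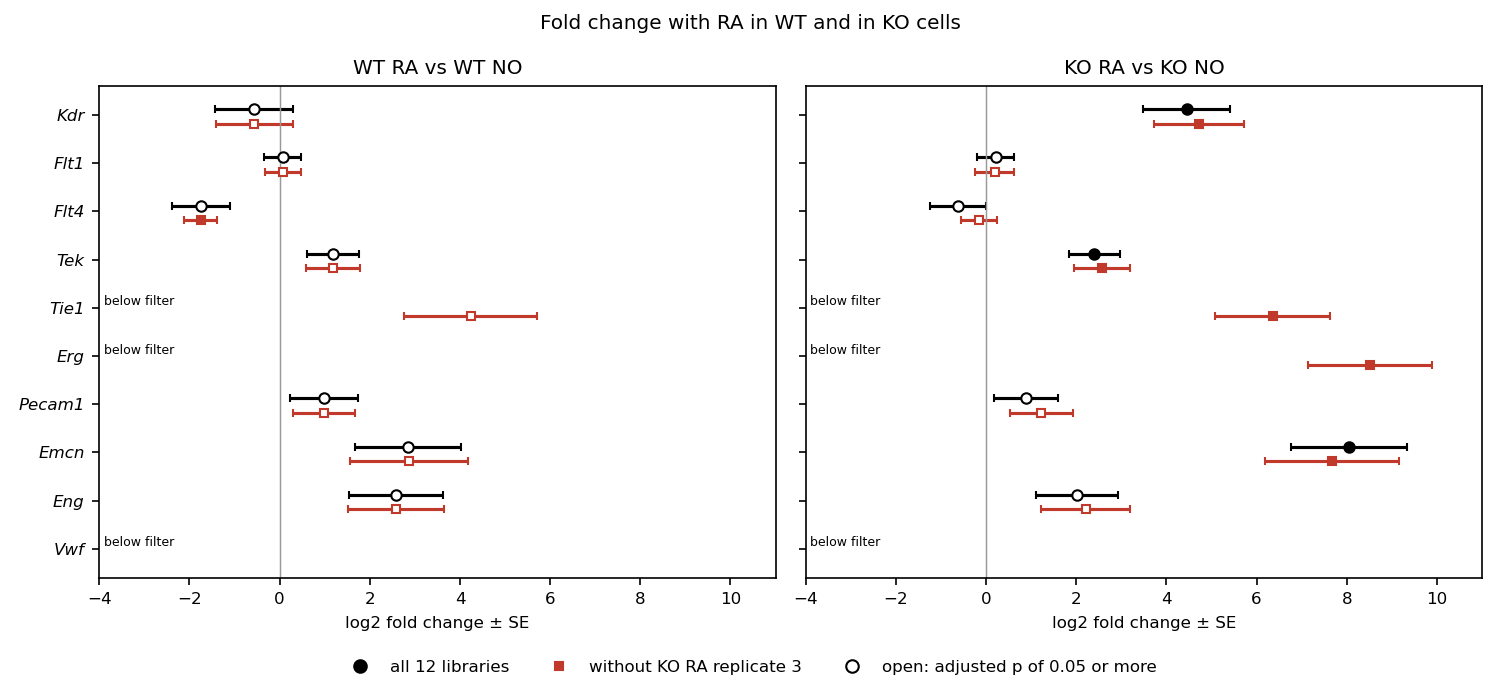
Log2 fold change with RA (points, with bars of 1 standard error) in WT cells (left) and KO cells (right), from edgeR with all 12 libraries (black circles) and without KO RA replicate 3 (red squares). Filled symbols had an adjusted p under 0.05, and members under the filter on low counts have no circle. In KO cells Emcn (8.06), Kdr (4.45) and Tek (2.40) are filled in black. The values of Emcn, and those of Erg without replicate 3, rest on a KO NO group without counts.

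The question of the RA comparisons was which genes respond to induction in each genotype. In KO RA against KO NO, the quasi-likelihood test of edgeR (adjusted p under 0.05, Benjamini-Hochberg) called 3 of the 7 members that passed the filter, all higher, where 5.48% of all genes tested were called and 3.89% were called higher. DESeq2 called these and Eng (9.94% of all genes higher) and limma-voom these, Eng and Pecam1 (15.2% higher). The median log2 fold change of the 7 members was 2.01 against 0.11 over all genes. A low gene can pass the filter through the group where it is high. Fitted on 2 groups alone, 6 members passed with KO RA and KO NO. Only 3 passed with KO NO and WT NO, and 3 with WT RA and WT NO. The 3 of 7 and this median therefore do not measure the list against all genes. The same limit applies to KO RA against WT RA and to the lists below. Without KO RA replicate 3, 5 of 9 members tested were called higher (Kdr, Tek, Tie1, Emcn and Erg), beside 8.48% of all genes called higher. The calls also rest on the KO NO libraries: without KO NO replicate 1 or 2 none was called, and without replicate 3 Emcn alone. In 6 of 10 members all KO RA libraries were above all KO NO libraries, against 11% of the 24250 genes with over 3 counts in a library. Without TMM factors it was 4 of 10 (Kdr, Tie1, Emcn and Erg) against 5.96%, and without KO RA replicate 3 it was 8 of 10, against 22.2%. Erg and Tie1 exceeded 3 counts in KO RA libraries alone, and the members were chosen with earlier results known. These shares therefore do not measure the list against all genes either, here or in KO RA against WT RA.

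In WT RA against WT NO, edgeR called 0 of 7 members and 0.406% of all genes. At an unadjusted p under 0.05 there were 2 higher (Emcn and Eng, beside 6.76% of all genes) and 1 lower (Flt4, beside 5.79%) with edgeR. DESeq2 and limma-voom each called 1, Flt4, beside 2.50% and 10.8% of all genes called lower. All WT RA libraries were above all WT NO libraries in 5 members (Tek, Tie1, Emcn, Eng and Vwf; 12.2% of all genes) and below them in Flt4 (10.1%). The change with RA differed between the genotypes in 0 of 7 members and in 0% of all genes by edgeR's test of the difference. At an unadjusted p under 0.05 edgeR gave 2 members with the larger change in KO cells, Kdr with 5.01 (SE 1.28, edgeR adjusted p = 0.327) and Emcn with 5.20 (SE 2.03, edgeR adjusted p = 0.529), beside 5.53% of all genes. DESeq2 and limma-voom each called Kdr, beside 1.30% and 3.63% of all genes.

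The comparisons of KO with WT cells asked what the loss of FAF2 changes before and after induction. In KO RA against WT RA, edgeR called 0 of 7 members, where 1.24% of all genes were called. At an unadjusted p under 0.05 there were 5 members, all higher in KO RA (Kdr, Emcn, Tek, Flt1 and Pecam1), beside 10.9% of all genes. DESeq2 called 2 (Kdr and Emcn, beside 5.02% of all genes higher) and limma-voom 6, these 5 and Eng (9.77%). All KO RA libraries were above all WT RA libraries in 7 of 10 members (8.16% of all genes), but in 2 of 10 without TMM factors (Emcn and Erg, 6.94% of all genes). It was 8 of 10, against 20.2%, without KO RA replicate 3. In KO NO against WT NO, edgeR called 0 of 7 members and 1.14% of all genes, with 2 higher (Pecam1 and Eng, beside 5.81% of all genes) and 1 lower (Kdr, beside 6.37%) at an unadjusted p under 0.05. Pecam1 and Eng had every KO NO library above every WT NO library (12.1% of all genes), and Flt4 the reverse (11.4%). DESeq2 called 0 there and limma-voom 2, Pecam1 higher and Flt4 lower, beside 10.9% and 10.8% of all genes. The log2 difference of Kdr was −2.12 (SE 0.91, edgeR adjusted p = 0.372), and the groups overlapped.

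**Figure D3:**
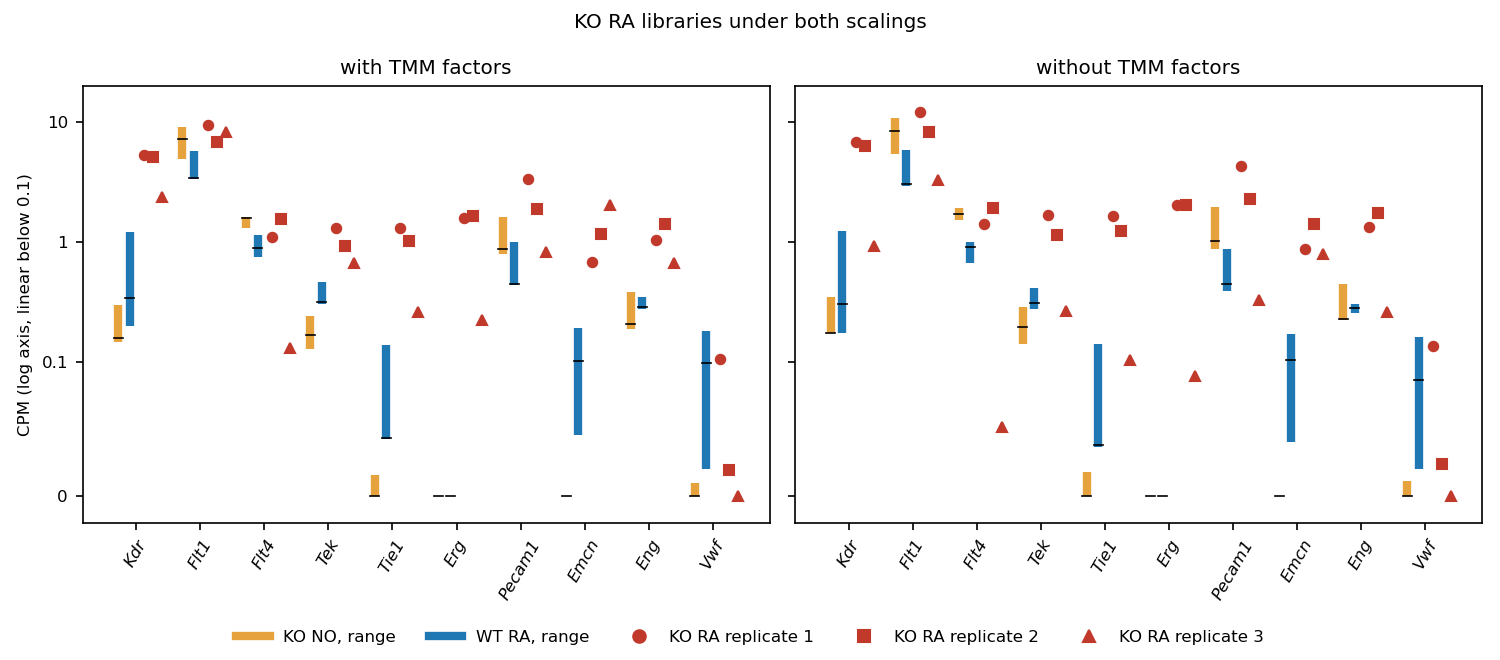
CPM of the 10 genes with TMM factors (left) and without them (right), on an axis that is logarithmic above 0.1 and linear below. Bars span the 3 KO NO and the 3 WT RA libraries with their median as a line, and red symbols are the KO RA replicates. KO RA replicate 3 drops from 2.38 to 0.937 CPM for Kdr and from 0.677 to 0.266 CPM for Tek, and stays above both bars for Emcn and Erg.

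Other genes of the same pathways came from lists of ligands, co-receptors, transcription factors and endothelial surface genes. Their counts stand beside 3.89% of all genes called higher in KO RA than in KO NO and 0.885% called higher in KO RA than in WT RA, and without KO RA replicate 3 beside 8.48% and 4.42%. Among the ligands of the VEGF and angiopoietin receptors, 1 of 7 tested rose in KO RA against KO NO. It was Angpt2, an antagonist of TEK made by endothelium, with 0.349, 0.639 and 3.98 CPM in KO RA against at most 0.0121 CPM in KO NO (log2 fold change 8.41, SE 1.90, edgeR adjusted p = 0.0381). WT RA had 1.20, 0.0713 and 0.621 CPM of Angpt2, overlapping with KO RA. Of 7 co-receptors and partners tested, Nrp1, a co-receptor of KDR also found on neurons, rose from 0.312, 0.250 and 0.319 CPM to 2.89, 1.83 and 3.93 CPM (log2 fold change 3.30, SE 0.46, edgeR adjusted p = 0.00391). In WT RA it had 0.855, 1.70 and 1.31 CPM, above all WT NO libraries but not called by edgeR (adjusted p = 0.0704). The counts without KO RA replicate 3 were 2 of 7 ligands and 2 of 7 co-receptors.

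Of 19 endothelial transcription factors tested, 4 rose in KO RA against KO NO. They were Fli1, an ETS factor close to ERG, with 7.12, 3.35 and 2.36 CPM in KO RA against 0.157, 0.127 and 0.0772 CPM (log2 fold change 5.16, SE 0.61, edgeR adjusted p = 0.00153), Nr2f2, a factor of venous identity also found in mesenchyme (5.82), Elk3 (2.37) and Ets1 (1.52). Nr2f2 was also called in WT RA against WT NO, by 5.87. Fli1 reached 0.914, 0.884 and 1.76 CPM in WT RA, above all WT NO libraries but not called (edgeR adjusted p = 0.0941). In KO RA against WT RA, 2 of 19 were called, both higher. Etv2, the ETS factor that starts the endothelial and blood lineages, had 2.86, 2.07 and 3.61 CPM against 0.322, 0.280 and 0.266 CPM (log2 difference 3.20, SE 0.49, edgeR adjusted p = 0.0152), and Ets1 was higher by 1.55. KO NO had 1.66, 0.741 and 0.944 CPM of Etv2 and WT NO 0.791, 1.20 and 0.581 CPM. Both NO groups lay between WT RA and KO RA without overlap. The WT RA values of Etv2 came from about 5, 4 and 4 fragments. Tal1, which works with Etv2 in those lineages, had 1.09, 1.32 and 1.09 CPM in KO RA and 0.389, 0.118 and 0.343 CPM in KO NO. WT RA had 0.0814, 0.200 and 0 CPM of it, and WT NO 0.852, 0.823 and 0.681 CPM. The KO RA libraries lay above all others, and the difference from WT RA missed the threshold (edgeR adjusted p = 0.0677). The counts without KO RA replicate 3 were 6 of 19 over KO NO and 5 of 19 over WT RA.

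Of 43 other endothelial surface and junction genes, 27 were tested and 8 rose in KO RA against KO NO (Calcrl, Vcam1, Gimap6, Cd34, Adgrl4, Ctla2a, Jam2 and Mcam), with a median log2 fold change of 1.75 over the 27. EdgeR called 0 lower. At an unadjusted p under 0.05 it gave 12 higher and 4 lower, beside 15.8% and 9.42% of all genes. The sum of the list did not rise, with 248 to 277 CPM in KO RA and 255 to 287 CPM in KO NO. In WT RA it was 190 to 223 CPM and in WT NO 173 to 228 CPM. A few abundant genes made much of this sum, so it does not describe the genes at low levels. Pdpn alone made 138 of the 277 CPM in KO NO replicate 3, and 71.6 of the 248 CPM in KO RA replicate 2. Ecscr made 91.5 of the 277 CPM in KO RA replicate 3. Cd34, shared by endothelial and blood progenitors, had 2.88, 2.38 and 3.29 CPM in KO RA and at most 0.159 CPM in any other library (log2 fold change over KO NO 4.96, SE 0.72, edgeR adjusted p = 0.00710). Adgrl4, an adhesion receptor of endothelium, had 2.56, 2.25 and 2.05 CPM in KO RA and 0 in the other 9 libraries, at least 26.3-fold higher than KO NO and at least 15.8-fold higher than WT RA. Calcrl, the receptor of adrenomedullin, was called in both genotypes with RA, by 4.42 in KO and 4.79 in WT cells. Cdh5, VE-cadherin of endothelial junctions, failed the filter, with 2.61, 2.21 and 0.292 CPM in KO RA, 0.188, 0.268 and 0.0295 CPM in WT RA, 0, 0.0133 and 0 CPM in WT NO and 0 in KO NO. Cldn5, of the tight junctions of brain endothelium, was at most 0.323 CPM in any library. In KO RA against WT RA, 4 of 27 were called higher (Cd34, Adgrl4, Calcrl and Ramp2). The counts without KO RA replicate 3 were 13 of 32 over KO NO and 7 of 32 over WT RA, with Cdh5 in both and Mcam in neither.

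**Figure D4:**
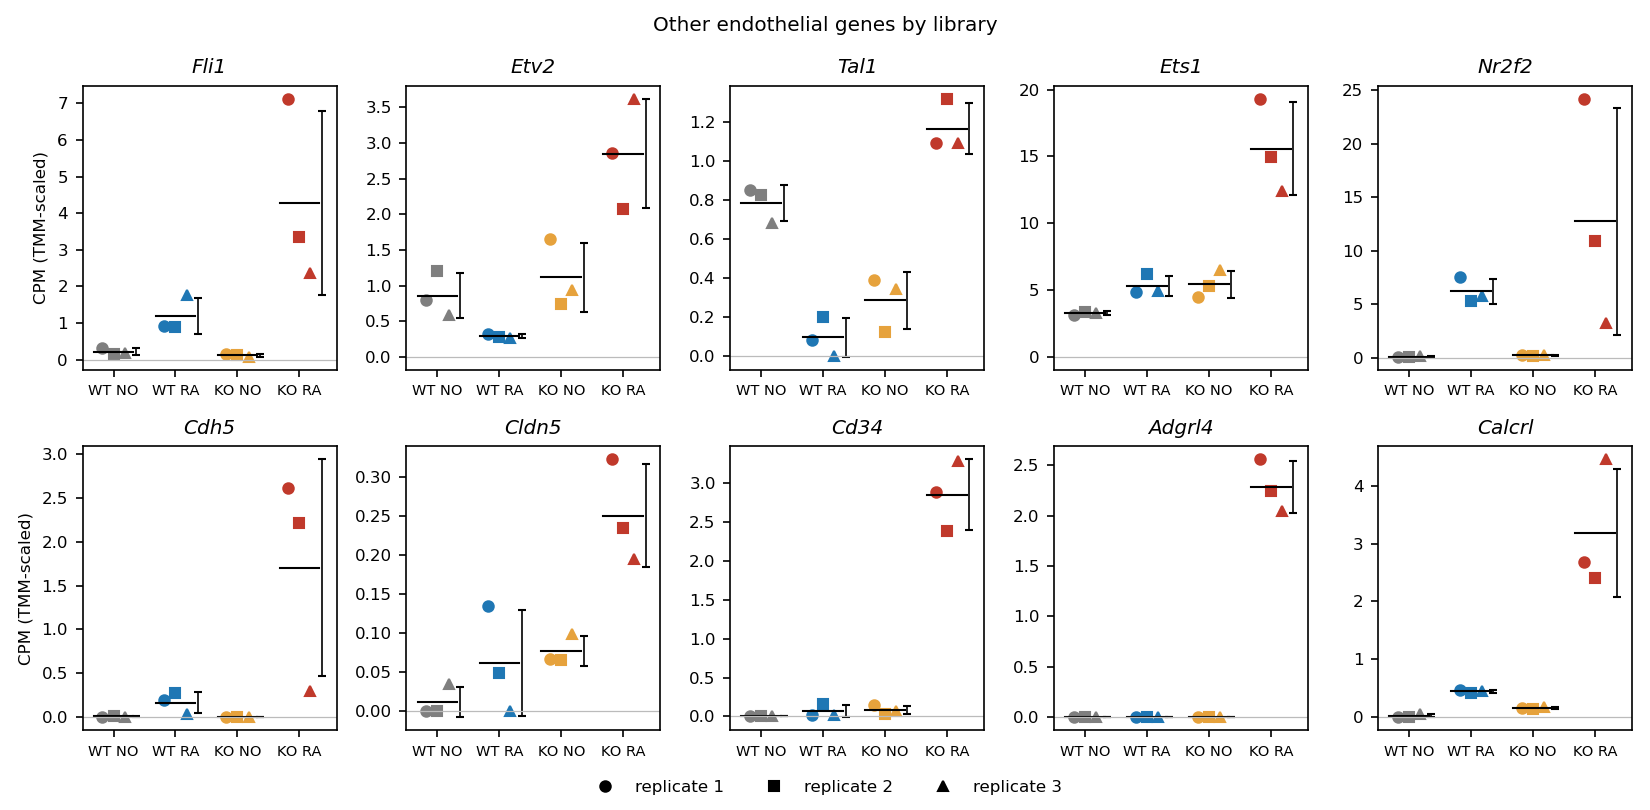
CPM (TMM-scaled, linear axes that differ between panels) of 5 transcription factors (top) and 5 surface and junction genes (bottom) of endothelial cells in every library. Symbols are replicates, horizontal lines group means and bars the SD of 3 libraries. Adgrl4 is at 0 outside KO RA, where it lies between 2.05 and 2.56 CPM, and Tal1 is higher in WT NO than in WT RA.

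Markers of other cell types moved in the same comparison. Mesenchymal markers rose in KO RA against KO NO in 5 of 11 tested (Prrx1, Col1a2, Col3a1, Twist2 and Col1a1; 6 of 11 without KO RA replicate 3) and summed to 125 to 440 CPM in KO RA, 45.4 to 53.4 CPM in KO NO, 111 to 126 CPM in WT RA and 32.4 to 70.6 CPM in WT NO. KO RA replicate 3 alone gave the 440 CPM, of which Dcn made 345 CPM. Replicates 1 and 2 summed to 234 and 125 CPM. Pdgfra, a defining marker, had between 0.730 and 2.28 CPM in KO RA. Mural cell markers rose in 2 of 9 (Acta2 and Mcam), with sums of 149 to 1021 CPM in KO RA, 24.3 to 33.4 CPM in KO NO, 63.0 to 227 CPM in WT RA and 28.6 to 106 CPM in WT NO. KO RA replicate 3 alone gave the 1021 CPM, of which Tagln made 763 CPM. Replicates 1 and 2 summed to 227 and 149 CPM, overlapping with WT RA. Without KO RA replicate 3, 2 of 9 were called, Acta2 and Notch3, and Mcam was not. Of the defining mural markers, Rgs5, which marks pericytes, did not exceed 0.155 CPM in any library. Pdgfrb had 0.776 to 3.99 CPM in KO RA, 1.01 to 1.77 CPM in KO NO and 0.795 to 0.823 CPM in WT RA. Cspg4 had 0.347 to 1.01 CPM in KO RA, 0.181 to 0.406 CPM in KO NO and at most 0.0642 CPM in WT RA. In WT NO, Pdgfrb had 0.0484 to 1.92 CPM and Cspg4 0.0119 to 0.215 CPM. Mcam is on both the mural and the endothelial list. In WT RA against WT NO, 3 of 11 mesenchymal and 0 of 9 mural markers were called higher, where 53 of all 16502 genes tested were called higher. The part of these cells in the result was not tested.

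Of the 15 haematopoietic markers, which include platelet genes, 3 passed the filter and 0 were called in KO RA against KO NO by edgeR, with 1 at an unadjusted p under 0.05. Their sum was 5.24 to 7.81 CPM in KO RA, 3.19 to 4.17 CPM in KO NO, 4.15 to 5.82 CPM in WT RA and 2.89 to 5.16 CPM in WT NO. The defining markers Ptprc, Spi1 and Itgam did not exceed 0.324, 0.259 and 0.0992 CPM in any library, and Gp9, Pf4 and Hbb-bt were at 0 in all. Neural progenitor markers rose in 5 of 11 (Fabp7, Sox1, Vim, Cdh2 and Nes) and neuron markers in 3 of 10 (Gap43, Map2 and Tubb3) in KO RA against KO NO (6 of 11 and 4 of 11 without KO RA replicate 3), with sums of 884 to 1016 and 179 to 277 CPM in KO RA and of 426 to 481 and 76.7 to 94.4 CPM in KO NO. In WT RA these sums were 607 to 794 and 156 to 177 CPM, and in WT NO 538 to 588 and 85.8 to 118 CPM. Dcx, a defining neuron marker that was not called, had 1.45 to 9.09 CPM in KO RA and 3.72 to 4.66 CPM in KO NO. It had 6.37 to 7.33 CPM in WT RA and 0.164 to 2.09 CPM in WT NO. Of 11 pluripotent cell markers, 0 rose and Dnmt3l fell, where 262 of all 16502 genes tested were called lower. Their sums were 1664 to 2542 CPM in KO RA and 2376 to 2792 CPM in KO NO. In WT RA the sums were 2912 to 4217 CPM and in WT NO 1984 to 3370 CPM. Of the defining neural progenitor markers, Sox2 and Sox3 were detected in every library, at 23.6 CPM or more and 9.70 CPM or more. Sox1 was at 0.111 to 0.828 CPM in the NO groups, 2.19 to 4.26 CPM in WT RA and 3.04 to 17.9 CPM in KO RA. The defining pluripotent cell markers Pou5f1 and Nanog were at 799 CPM or more and 43.6 CPM or more in every library. Zfp42, also on that list, was at most 0.102 CPM.

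Over the 12 libraries, the members' levels were compared by Pearson's r of log2 CPM (0.5 added) as a description, since the libraries share groups, depth and scaling. Tie1 and Erg ran closest together (r = 0.98), followed by Tek and Tie1 (0.94), while Flt4 had a negative r with all 9 other members, from −0.63 with Emcn to −0.15 with Kdr. Among all genes tested, those most like 6 of the 7 members tested were Ctla2a (0.98) and Gimap6 (0.98) for Emcn, Fli1 (0.97) and Col6a2 (0.96) for Tek, Slc35f1 (0.96) and Pappa (0.95) for Kdr and Clstn2 (0.95) and Ehd2 (0.95) for Eng. For Pecam1 they were Emid1 (0.92) and Ensa (0.90) and for Flt4 Hdac3 (0.97) and Eif4h (0.97). The order depended on KO RA replicate 3: without it Ctla2a ranked 10 for Emcn, Col6a2 7 for Tek and Hdac3 5 for Flt4, and of these genes only Slc35f1, for Kdr, stayed at rank 1.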

How the data were processed

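Messenger RNA was sequenced in 12 libraries. The authors aligned and quantified reads with STAR and Salmon in the nf-core pipeline on GRCm39 (Ensembl 109). The deposited values are estimated counts rebuilt from TPM at the library total, so length is taken out and differences in composition between libraries remain. The submitters' processing notes name DESeq2. Columns were matched to samples by genotype, treatment and replicate number. Estimated counts were rounded and tested with edgeR 4.0.16 (R 4.3.3): filterByExpr, TMM, glmQLFit and glmQLFTest with robust estimation, 1 coefficient per group, Benjamini-Hochberg adjustment over 16502 genes, and a call at an adjusted p under 0.05. Fits share all 12 libraries. DESeq2 1.42.0 and limma-voom 3.58.1 were alternatives.

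The 12 libraries held 17370049 to 30738694 counts. Fragment numbers are approximate: a value was multiplied by the gene's length less 200 bp and divided by a constant per library, which gave values within 0.15 of whole fragments for 92.2% to 94.4% of the low values of genes with 1 transcript over 1500 bp. One fragment of a member made between 0.0925 and 0.598 deposited counts. The floor of 3 counts and all fragment intervals cover counting error only. Since 1 fragment makes less than 1 count, 3 counts stand for more than 3 fragments of any member. Comparisons share control libraries, so KO NO and WT NO each enter several. Libraries come from independent passages of the same lines, so p-values measure the spread between passages. Positions and transcript starts came from GENCODE M39 on GRCm39, read with Python 3.11.15, and all 10 members matched by gene identifier. Figures were drawn with matplotlib 3.10.9.

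The members and gene lists were chosen with earlier results of these data known. Named genes are the members, Faf2, up to 6 genes of each list called in any comparison by smallest adjusted p, the first 3 markers of each other cell type, Cdh5, Cldn5, Cd34, Fli1, Etv2 and Tal1, and the 2 genes most like each tested member (those of Flt1 are not reported here). Other names (Jam2, Ramp2, Pdpn, Ecscr, Notch3, Gp9, Pf4 and Hbb-bt) were chosen after their values were seen. Overlap of groups without TMM factors and without KO RA replicate 3 was also chosen after seeing the data. The fit was also run on simulated counts. These had less spread between replicates than the data (common dispersion 0.215) and no outlying library. That run therefore does not check the fit under the spread of these data.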

Additional observations from a re-analysis of the deposited data

How the results depend on the processing

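Of the members called in KO RA over KO NO, Emcn kept its call in 17 of 20 alternatives, Kdr in 16 of 20 and Tek in 7 of 19. Counts below are given in a fixed order: KO over WT cells without RA, KO over WT cells with RA, the RA response of WT cells, that of KO cells, and the difference between both responses. The reported edgeR counts were 188, 205, 67, 904 and 0 genes, and 0, 0, 0, 3 and 0 members. DESeq2 called 1015, 1315, 924, 2632 and 309 genes, and 2 members for KO over WT cells with RA, 1 for the WT response, 4 for the KO response (Kdr, Tek, Emcn and Eng) and 1 for the difference. Limma-voom called 3575, 2993, 3576, 4534 and 1001 genes and 2, 6, 1, 5 and 1 members, and turned the WT response of Kdr to 0.15 and of Flt1 to −0.34 on the log2 scale. Without the filter, the WT response gave 43 genes and the KO response 583. With at least 10 counts in every library, the first 3 counts were 43, 80 and 36 genes, and in the KO response 0 members were called of the 1 that could be tested. With the 2 groups compared alone the counts were 718, 16, 545 and 196 genes, with 1 member (Kdr) in the KO response. On approximate fragments, KO over WT cells with RA gave 308 genes and turned Flt4 to −0.0043. The cause of these differences was not tested.

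Replicate numbers did not pair the libraries, since 12 correlations of same-numbered deviations lay between −0.215 and 0.0464. With the replicate block, edgeR called 56, 59, 10 and 467 genes in the first 4 comparisons and 1 member (Emcn) in the KO response.

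Leaving out 1 library at a time gave 40 to 1520, 19 to 1707, 0 to 1868, 194 to 2776 and 0 to 232 genes, and the highest counts came without KO RA replicate 3. Members called ranged from 0 to 1 for KO over WT cells with RA (Erg, without KO RA replicate 3) and for the WT response (Flt4), and from 0 (without KO NO replicate 1 or 2) to 5 (without KO RA replicate 3) for the KO response. Log2 values that changed sign, none of them called, ranged without RA from −0.11 to 0.42 for Tek and −2.23 to 0 for Emcn in KO over WT cells, and with RA from −0.50 to 0.53 for Flt4. The WT response ranged from −1.68 to 1.09 for Kdr and −0.29 to 0.31 for Flt1. The difference between responses ranged from −1.21 to 0.41 for Pecam1, −0.075 to 0.52 for Flt1 and −4.02 to 0.015 for Eng. Erg, Tie1 and Vwf lay under 3 counts in most libraries, so their levels there are poorly measured.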
